A study of Oryctolagus cuniculus with 8 samples.

Results

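Mitochondria carry a small genome of their own, and the proteins it encodes are core subunits of the machinery of oxidative phosphorylation. The 10 mitochondrially encoded protein genes described here are COX1, COX2, COX3, ATP6, ATP8, CYTB, ND1, ND2, ND4 and ND5. They were chosen by symbol among the protein-coding rows of the expression table. All 10 were found, among 19293 protein-coding genes and 25666 genes of all kinds, and all 10 passed the filter on low values. The table holds 13 protein genes of the mitochondrial genome in all, and the other 3 (ND3, ND4L and ND6) are given beside the 10 where they bear on a result. ND alone always stands for the normal diet, and ND followed by a number is a gene.

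COX1, COX2 and COX3 form the catalytic core of complex IV, cytochrome c oxidase, which passes electrons to oxygen. ATP6 and ATP8 belong to the membrane part of complex V, the ATP synthase. CYTB is the cytochrome b of complex III, and the ND genes encode membrane subunits of complex I, which takes electrons from NADH. The remaining subunits of these complexes are encoded in the nucleus. The mitochondrial genes are transcribed as long precursors that are cut, mostly at the tRNAs lying between the genes, so that messages of equal synthesis can still reach different levels. ATP8 and ATP6 lie on a shared message with overlapping reading frames, and so do ND4L and ND4. In the retina the inner segments of photoreceptors are packed with mitochondria.

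RNA was sequenced from 8 retinas of wild-type male Chinchilla rabbits aged about 10 months, with n=2 for each of 4 diets fed over 6 months. ND was standard chow, HFD was chow with 10% lard and 0.5% cholesterol, HSD was chow with 40% sucrose, and HFSD combined the additions of HFD with sucrose at 35%. The study asked what fat and sucrose do to the retina, alone and together. The values are FPKM, the fragments of a gene scaled for its length in kilobases and for the depth of its library, and a level given below is an FPKM unless said otherwise. Nothing in the labels says that the retinas of a diet came from separate rabbits, so the p-values measure the spread between these retinas, which may be technical. In whole retinas, fewer cells of a type and less RNA per cell cannot be told apart.

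The libraries held 15222858 to 22292596 fragments summed over all genes. The 5 cone markers found (of 9) and all 7 markers of Müller glia were expressed in every library. Cone markers summed to 589.9 and 529 FPKM on ND, 597 and 451 on HFD and 770.3 to 933 in the HSD and HFSD retinas, with none at 0. Müller glia markers, none at 0 either, summed to 3463 and 4684 FPKM on ND and 4086 and 3739.6 on HFD. In the HSD and HFSD retinas they summed to 2541 to 2705. Of them, GLUL held 1489 and 2127 FPKM on ND and 722 to 890 in the HSD and HFSD retinas. There SLC1A3 lay between its ND values and DKK3 held 185 to 232 against 160 and 196, so the markers did not all move alike. Markers of the pigment epithelium, all 8 found and none at 0, summed to 451 and 529.6 FPKM on ND against 116 to 304 FPKM in the other 6 retinas. RLBP1 stands in this list and in that of Müller glia, and the 7 other pigment epithelium markers summed to 302 and 224 FPKM on ND against 23.4 to 75.1 FPKM. The part of these cells in the comparisons below was not tested. HSD replicate 2 stood apart by skeletal muscle RNA. Its 10 muscle marker rows (9 of 12 symbols found) summed to 562 FPKM and none was at 0, against 56.5 to 100.3 FPKM and 2 to 4 rows at 0 in the other libraries. In those 7, PVALB, which retinal amacrine cells also express, held most of the sum, and the muscle genes TNNC2 and TNNT3 were at 0, against 77.8 and 18.1 FPKM in HSD replicate 2. The counts and medians of the 10 genes in HSD are therefore given with and without it.

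Among protein-coding genes, 9 of the 10 ranked between 2 and 52 in every library, and ATP8 between 921 and 1791. COX1 was the highest of them, with 10115 and 12563 FPKM on ND, 15402 and 12060.4 on HFD, 11156 and 14796 on HSD and 11003 and 12299 on HFSD. Its rank among protein-coding genes was 2 in all 8 libraries. COX2 held 5302 and 5153 FPKM on ND, 6911 and 6866 on HFD, 5435 and 7643 on HSD and 6552 and 7082 on HFSD. COX2 was the only complex IV subunit whose 6 retinas on an enriched diet all lay above both ND retinas, although HSD replicate 1 did so narrowly. COX3 held 3644 and 4024 FPKM on ND, 5084 and 4292 on HFD, 3454 and 5298 on HSD and 4109 and 4229.9 on HFSD.

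ATP6, the subunit of complex V that lines the proton channel, held 4513 and 4447 FPKM on ND, 5282 and 5197 on HFD, 3671 and 6269.6 on HSD and 5271 and 5504 on HFSD. The ND retinas lay close together, the HSD retinas were the lowest and the highest of all, and all HFD and HFSD retinas lay above ND. ATP8, a small accessory subunit of the same complex, held 53.4 and 68.7 FPKM on ND, 106 and 73.6 on HFD, 83.6 and 77.9 on HSD and 75.9 and 69.6 on HFSD. It was the least abundant of the 10 by far, and HFSD replicate 2 lay only just above the higher ND retina. CYTB, the complex III subunit, held 2538 and 3353 FPKM on ND, 3064 and 2945 on HFD, 2238 and 3661 on HSD and 3023 and 3078 on HFSD. Its HFD and HFSD retinas lay between the ND retinas, and its HSD retinas lay beyond them on either side.

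The complex I subunits were lower and close to each other. ND5 held 1181 and 1942 FPKM on ND, 1536 and 1440.3 on HFD, 1365 and 1770.05 on HSD and 1576 and 1647 on HFSD, so that the ND retinas held both its lowest and its highest value. ND4 held 1194 and 1404 FPKM on ND, 1287 and 1448 on HFD, 1182 and 1624 on HSD and 1415 and 1544 on HFSD. Both HFSD retinas lay above both ND retinas in this gene, by a small margin in HFSD replicate 1. ND2 ran from 898 FPKM in HFD replicate 2 to 1237 FPKM in HSD replicate 2, and ND1 from 821 FPKM in HSD replicate 1 to 1207 FPKM in HFD replicate 1. For ND2 and ND1 every enriched diet overlapped ND.

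**Figure D1:**
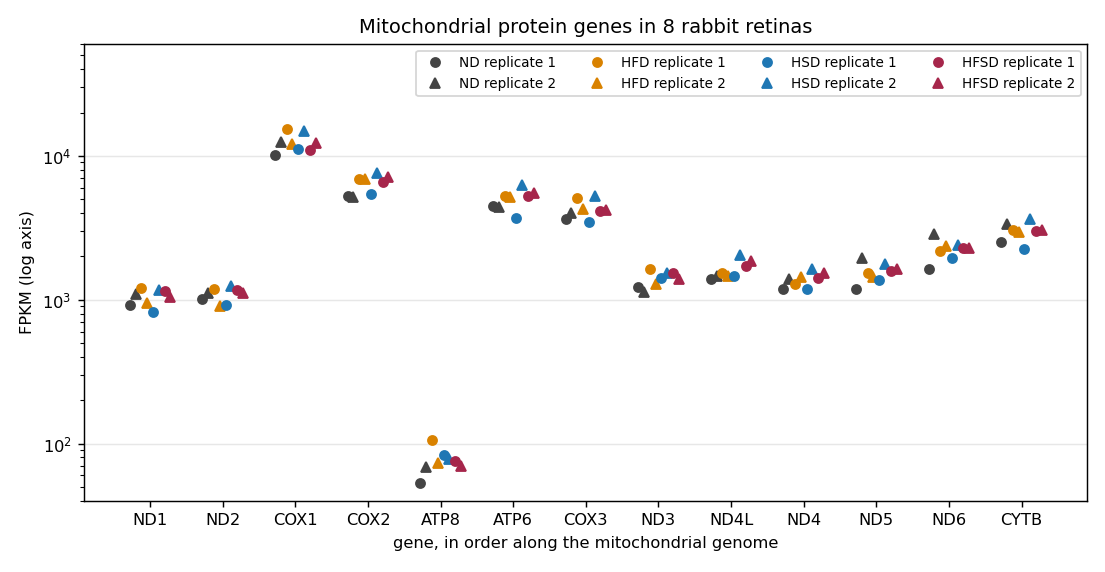
FPKM on a log axis for the 13 protein genes of the mitochondrial genome, in the usual order along that genome. Each point is 1 retina, coloured by diet, with circles for replicate 1 and triangles for replicate 2. COX1 lies at 10115 to 15402 FPKM, ATP8 lies at 53.4 to 106 FPKM, and the spread of a gene's points is small beside the distance between most genes.

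The order of the genes was nearly the same in every retina. By the mean over the 8 libraries it ran COX1 (12424 FPKM), COX2 (6368), ATP6 (5019), COX3 (4267), CYTB (2988), ND5 (1557), ND4 (1387), ND2 (1080.0), ND1 (1045) and ATP8 (76.1). Each gene lay above the next in 8 of 8 libraries except in the pairs ND5 and ND4, and ND2 and ND1, where the order held in 6 of 8. ND5 stood at 0.989 to 1.38 times ND4, and the order within these pairs was not tested. The coefficient of variation over the 8 libraries was 11.4% to 15.7% for 9 of the genes and 19.6% for ATP8. Counting error covered little of this, at 0.192% to 0.899% in the shallowest library for the 9 genes, but was 6.85% for ATP8, which rested on 213 to 431 fragments in a library. COX1 rested on 271181 to 474303. Copies made by amplification were not marked, so these are counting errors only.

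Complex IV took the largest part of the FPKM of these genes. COX1, COX2 and COX3 together took 61.3% to 66.7% of the FPKM of the 10 genes (median 63.2%). The 4 complex I genes took 12.7% to 15.8%, ATP6 and ATP8 took 12.4% to 15.1%, and CYTB took 7.38% to 9.53%. Over all 13 protein genes, with ND3, ND4L and ND6 in complex I, complex IV took 53.0% to 59.0% and complex I 22.8% to 27.1%. These shares varied little from library to library, in any diet. COX1 stood at 1.68 to 2.44 times COX2 (median 1.92), and ND1 at 0.893 to 1.05 times ND2.

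Of the pairs that share a message, ATP8 and ATP6 were far apart and ND4L and ND4 close. ATP6 was 43.9 to 84.5 times as high as ATP8 (median 70.0), whereas ND4 was 0.80 to 0.998 times ND4L. The recovered lengths are 204 bases for ATP8 and 297 for ND4L. The sources used here do not say how fragments in the overlap of such genes were counted, so the levels of these 4 genes are uncertain. Reads with several locations were discarded by the authors, and nuclear genomes hold copies of mitochondrial sequence, so all 10 levels are uncertain to that extent. ND6, the only protein gene on the other strand, held 1642 to 2867 FPKM, or 1.36 to 1.65 times ND5, the neighbour that ends beside it. Without strand, reads of ND6 and of transcripts running antisense over it cannot be told apart.

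The 10 genes together took 5.35% and 5.75% of all FPKM in the ND retinas. On HFD the share was 6.29% and 6.26%, on HSD 5.37% and 7.64%, and on HFSD 6.19% and 6.61%. Its mean was 5.55% ± 0.288 on ND, 6.27% ± 0.016 on HFD, 6.50% ± 1.6 on HSD and 6.4% ± 0.291 on HFSD (± s.d., n=2 each). HFD and HFSD retinas thus lay above both ND retinas, and the HSD retinas spanned almost the whole range. HSD replicate 2, the retina with muscle RNA, had the highest share, and HSD replicate 1 lay between the ND retinas. The part of the muscle RNA in the HSD values was not tested. FPKM summed over all genes to 653354 in HFD replicate 1 and 611233 in ND replicate 2, against 564389 to 577406 in the other libraries, which is why the share was used beside the level.

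**Figure D2:**
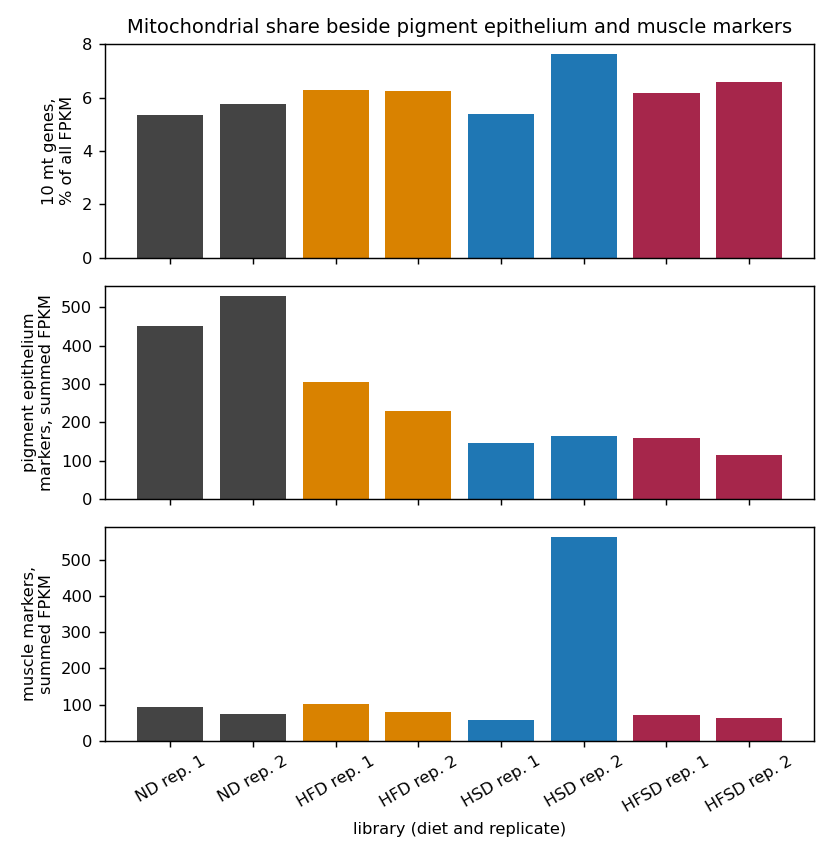
Bars show, for each of the 8 libraries, the 10 mitochondrial genes as a percent of all FPKM (top), the summed FPKM of pigment epithelium markers (middle) and of skeletal muscle markers (bottom), all from 0. The mitochondrial share is lowest in ND replicate 1 at 5.35% and highest in HSD replicate 2 at 7.64%, the library whose muscle markers reach 562 FPKM.

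The retinas of ND, and those of HSD, differed from each other by more than the median difference of any diet from ND in the fit of all 8 libraries. In ND, 8 of the 10 were higher in replicate 2, with a median log2 difference of 0.25, and the sums stood in a ratio of 1.15. The median absolute difference between the ND retinas was 0.25 for the 10 genes and 0.19 for all 12204 genes tested. HSD replicate 2 was higher than HSD replicate 1 in 9 of 10 genes, all but ATP8, with a median log2 difference of 0.48 and a ratio of sums of 1.44, while the median absolute difference of all genes was 0.14. In HFD, 1 of 10 (ND4) was higher in replicate 2, with a median difference of −0.17, and the median absolute difference was 0.21 for the 10 genes and 0.23 for all. In HFSD 7 of 10 were, with a median difference of 0.05, and the absolute medians were 0.09 and 0.13. ND replicate 1 lay below the 8-library mean in all 10 genes and HSD replicate 2 above it in all 10.

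The ND retinas differed by gene as well as in total. ND5 was 1.64 times as high in ND replicate 2 as in ND replicate 1, its neighbour ND6 1.75 times, CYTB 1.32 times and COX1 1.24 times. COX2 and ATP6 differed little, at 0.972 and 0.985 times. ND5, ND6 and CYTB, which lie side by side, had the highest ratios of the 13 genes. The 22 mitochondrial tRNA rows summed to 289 FPKM in ND replicate 1 and 816 in ND replicate 2, and to 385 to 669 in the other 6. Of these rows, 4 were at 0 in all libraries, and tRNAs are shorter than the fragments such libraries usually hold. The 2 mitochondrial rRNA rows went the other way in ND, with 1871 and 1477 FPKM, and ran from 1037 in HSD replicate 1 to 2141 in HFD replicate 1. The ND retinas also differed in myelin RNA, whose 6 markers summed to 699 FPKM in replicate 1 and 95.7 FPKM in replicate 2, with none at 0, and in the other libraries to 45.4 to 467 FPKM. Blood markers (3 of 8 found) summed to 82.2 and 8.12 FPKM in them, and 6 of 7 endothelial markers were higher in ND replicate 1, CLDN5 the most abundant of them at 28 and 1.03 FPKM. The exception, KDR, stood at 75.8 and 126 FPKM. The part of these cells in the differences was not tested.

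**Figure D3:**
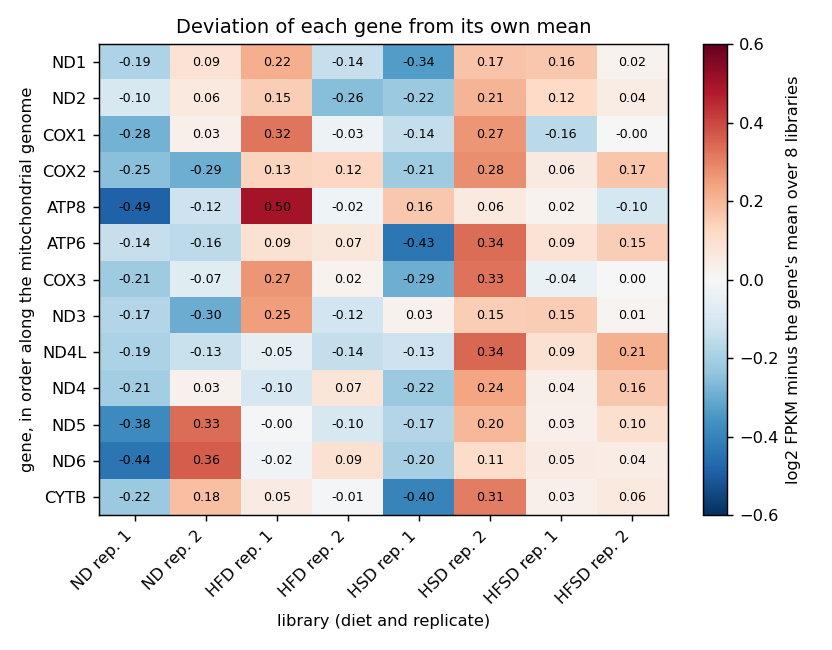
Colours and figures give the log2 FPKM of each of the 13 protein genes in each library minus that gene's mean over the 8 libraries, with genes in their usual order along the mitochondrial genome. ND replicate 1 is blue throughout and HSD replicate 2 red throughout, and ND5 and ND6 run from −0.38 and −0.44 in ND replicate 1 to 0.33 and 0.36 in ND replicate 2.

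In HFD against ND, 8 of the 10 genes were higher, with a median log2 fold change of 0.16, beside a median of 0.01 and 51.2% higher among all 12204 genes tested. None passed the test (limma, adjusted p under 0.05), where 0.00819% of all genes did. The complex IV genes differed by 0.27 ± 0.34 for COX1, 0.40 ± 0.27 for COX2 and 0.29 ± 0.27 for COX3 (log2 ± s.e., adjusted p=0.998 in limma for each). ATP6 differed by 0.23 ± 0.30. ATP8 had the largest difference, 0.54 ± 0.19 (unadjusted p=0.0256, adjusted p=0.998 in limma). It was the 1 member of the 10 with an unadjusted p under 0.05, a limit that 4.31% of all genes passed. CYTB and the complex I genes lay between −0.04 (ND2) and 0.09 (ND1). COX2, COX3, ATP6 and ATP8, which is 4 of 10, had both HFD retinas above both ND retinas, as 12.5% of all genes did. None of the 10 had both below, as 13.3% of all genes did. Without ND replicate 1, 5 of 10 genes were higher with a median of 0.04, and without ND replicate 2 all 10 were, with a median of 0.29. Without HFD replicate 2, 9 of 10 were higher with a median of 0.25.

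The ATP8 value in HFD rested on HFD replicate 1, at 106 FPKM, and on ND replicate 1, at 53.4 FPKM. By the fold rule of the study (mean FPKM plus 1 over mean ND FPKM plus 1, below 0.65 or above its reciprocal rounded to 2 decimals), none of the 10 genes passed in HFD, against 1.76% of protein-coding genes. The ratios ran from 0.953 for ND5 to 1.46 for ATP8. ATP8 passed the rule without HFD replicate 2, at 1.72, and without ND replicate 2, at 1.67. Without HFD replicate 1 or ND replicate 1 it did not pass.

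In HSD against ND, 8 of 10 genes were higher, with a median log2 fold change of 0.10, beside −0.002 and 49.5% higher among all genes. This direction depended on single retinas. Without HSD replicate 2, the retina with muscle RNA, 2 of 10 were higher and the median was −0.15, and without HSD replicate 1 all 10 were higher with a median of 0.34. Without ND replicate 1, 5 of 10 were higher with a median of 0.007, and without ND replicate 2 all 10, with 0.22. With limma, 0 of 10 were called at an adjusted p under 0.05 (0.0574% of all genes) and 0 of 10 at an unadjusted p under 0.05 (7.2% of all genes). ATP8 differed by 0.41 ± 0.19 (unadjusted p=0.0692, adjusted p=0.734 in limma), COX2 by 0.30 ± 0.27 and COX1 by 0.19 ± 0.34. COX2 was at 0.06 without HSD replicate 2 and at 0.55 without HSD replicate 1. COX3 (0.16), ATP6 (0.10) and ND4 (0.10) followed, and CYTB and ND1 were at −0.03. ATP8 and COX2, 2 of 10, had both HSD retinas above both ND retinas, where 19.3% of all genes did, and none had both below (19.7% of all genes). None passed the fold rule (3.95% of protein-coding genes), and the ratios ran from 0.988 for ND1 to 1.32 for ATP8, or from 0.760 to 1.36 without HSD replicate 2.

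In HFSD against ND all 10 genes were higher, with a median log2 fold change of 0.13, beside −0.004 and 49.2% higher among all genes. The differences were small. COX2 was highest at 0.38 ± 0.27 (adjusted p=0.761 in limma), then ATP6 at 0.27 ± 0.30, ATP8 at 0.26 ± 0.19 and ND4 at 0.19 ± 0.21. COX1, the most abundant, differed by 0.05 ± 0.34. With limma, 0 of 10 were called after adjustment (0.0164% of all genes) and 0 of 10 had an unadjusted p under 0.05 (8.07% of all genes). COX2, COX3, ATP6, ATP8 and ND4, 5 of 10, had both HFSD retinas above both ND retinas, where 21.6% of all genes did, and none had both below (20.6% of all genes). None passed the fold rule (3.43% of protein-coding genes), with ratios of 1.03 for COX1 to 1.30 for COX2. Without ND replicate 1, the lower of the controls, 7 of 10 were higher with a median of 0.04, and without ND replicate 2 the median was 0.27.

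COX2 and ATP8 were the genes of the 10 whose 6 retinas on enriched diets all lay above both ND retinas, as 1.96% of all genes did, and ND3 did so too. All 3 comparisons share the same ND retinas, so they do not repeat one another. Neither gene passed a test in any diet, and the 95% intervals of the COX2 log2 fold change ran from −0.23 to 1.03 in HFD, −0.33 to 0.94 in HSD and −0.25 to 1.01 in HFSD. Over the 10 genes the intervals spanned folds of 0.642 to 2.10 in HFD, 0.621 to 1.98 in HSD and 0.595 to 2.02 in HFSD.

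**Figure D4:**
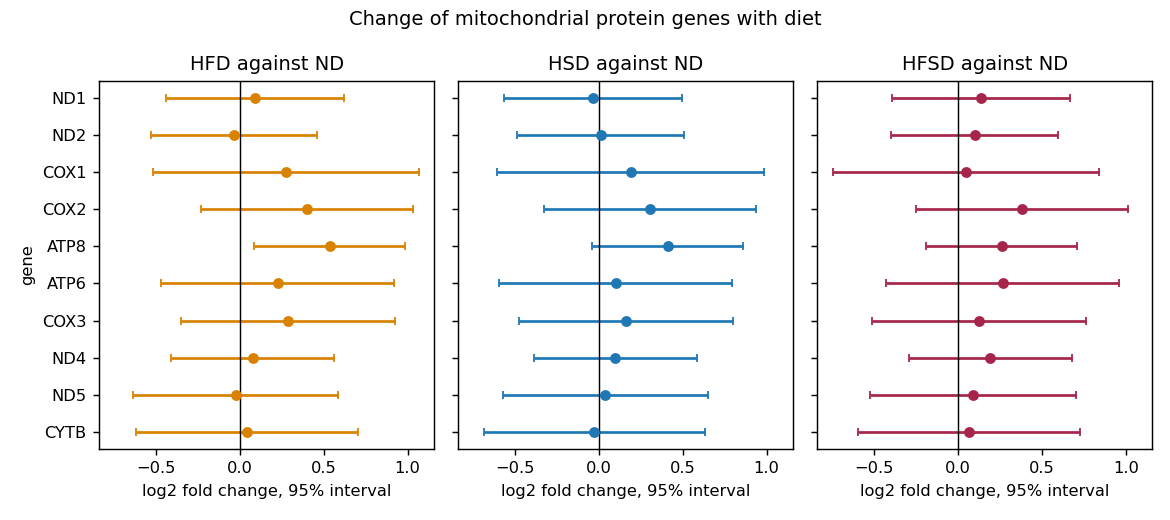
Points give the log2 fold change of each of the 10 genes against ND in limma, and bars its 95% interval, with n=2 retinas a diet. Every interval crosses 0 except that of ATP8 in HFD, from 0.09 to 0.99, whose adjusted p was 0.998.

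The interaction asked whether fat and sucrose together differed from the sum of their separate effects. The median over the 10 genes was −0.02 on the log2 scale, with 5 of 10 above 0, beside 0.01 and 51.9% for all genes. It was 0.26, with 6 of 10 above 0, without HSD replicate 2, and −0.38, with 0 of 10, without HSD replicate 1. Without ND replicate 2 it was −0.22, with 1 of 10 above 0, and over the other retinas left out it ran from −0.09 to 0.03. ATP8 had the value farthest from 0, −0.69 ± 0.27 (unadjusted p=0.0383, adjusted p=0.999 in limma). It was the 1 gene of 10 with an unadjusted p under 0.05 (3.74% of all genes), and 0 of 10 were called after adjustment (0.00819% of all genes). COX1 was at −0.42 ± 0.48, COX3 at −0.32 ± 0.39 and COX2 at −0.32 ± 0.38, and the other genes lay between −0.06 and 0.13. ATP8 was at −0.94 without HFD replicate 2 and at −0.43 without HFD replicate 1. Without HSD replicate 1 and then without HSD replicate 2, COX1 was at −0.62 and −0.21, COX3 at −0.63 and −0.015, and COX2 at −0.56 and −0.07. None of the 10 genes was called in any comparison when limma's voom was run on the recovered fragments.

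Nuclear subunits of the same complexes were measured in the same retinas. Of 84 listed nuclear subunits of complexes I to V, 41 were found by symbol and 40 were tested, 20 of complex I, 3 of complex III, 8 of complex IV and 9 of complex V. The 4 subunits of complex II, which has no mitochondrially encoded subunit, were matched to no symbol and so gave no value. None of the 40 was called in any comparison, and none had an unadjusted p under 0.05 in limma, where 3.74% to 8.07% of all genes did. In HFD 38 of 40 were higher than in ND (median log2 fold change 0.17), in HSD 19 (−0.004) and in HFSD 9 (−0.08), and in the interaction 3 lay above 0 (−0.24). The HFD count rested on HFD replicate 1, and without it was 17 of 40 with a median of −0.03. The HSD count was 9 without ND replicate 1, 27 without ND replicate 2 and 21 without HSD replicate 2. The HFSD count was 19 (median −0.002) without ND replicate 2 and 15 without HFSD replicate 1, and was 6 without ND replicate 1. With each library scaled to the sum of its non-mitochondrial genes, 36, 26 and 18 of 40 were higher, and 7, 10 and 10 of the mitochondrial 10.

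Summed, the nuclear subunits ran from 7538 FPKM in HFSD replicate 1 to 10866 FPKM in HFD replicate 1, and the mitochondrial 10 stood at 3.89 and 3.96 times that sum in ND. On HFD the ratio was 3.78 and 4.38, on HSD 3.70 and 5.41, and on HFSD 4.69 and 4.74. Both HFSD retinas lay above both ND retinas in it, and the HFD and HSD retinas did not separate from ND. COX4I1, the most abundant of the 8 nuclear complex IV subunits found (of 16 listed), held 912 and 1086 FPKM in ND and 819 and 852 in HFSD (log2 fold change −0.25, adjusted p=0.758 in limma). COX6A1 of the same complex differed by −0.18 in HFSD. ATP5F1A, the alpha subunit of complex V, differed by −0.16, and ATP5F1E, the epsilon subunit, by −0.03. UQCRB of complex III was at 0.08 and UQCRQ at −0.10 on the log2 scale, and in complex I NDUFA6 was at −0.04 and NDUFB9 at −0.05.

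Genes that make or keep the mitochondrial RNA and DNA showed no call either. Of the genes for mitochondrial transcription and RNA processing, 18 of 25 were tested. The median difference from ND on the log2 scale was 0.03 for HFD, 0.03 for HSD and 0.04 for HFSD. GRSF1, which binds RNA in mitochondrial granules, held 48.4 to 54.1 FPKM over the 8 libraries, and FASTK, which binds mitochondrial RNA, 25.5 to 31.6. MTERF2, a transcription termination family member, differed by 0.48 ± 0.21 in HFSD (unadjusted p=0.0492, adjusted p=0.616 in limma). It was the 1 gene of 18 with an unadjusted p under 0.05 there, a limit that 8.07% of all genes passed. TFB1M, which methylates the small mitochondrial rRNA, differed by −0.49 ± 0.18 in the interaction (unadjusted p=0.0264, adjusted p=0.999 in limma), again 1 of 18, beside 3.74% of all genes.

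Of the mitochondrial DNA maintenance genes, 11 of 16 were tested, and RRM2B, a subunit of the ribonucleotide reductase of resting cells, differed by 0.38 ± 0.11 in HSD (unadjusted p=0.00947, adjusted p=0.462 in limma), the 1 gene of 11 under that limit, beside 7.2% of all genes. MFN2, which fuses mitochondria, held 81.6 to 102 FPKM, and SLC25A4, the ADP and ATP carrier, differed by −0.29 in HFSD. Among the regulators of mitochondrial biogenesis (7 of 9 tested) ESRRG held 28.4 to 42.3 FPKM and GABPA 25.8 to 40.4. Of other mitochondrial proteins, the outer membrane channels VDAC1 and VDAC2 held 415 to 530.0 and 469 to 552 FPKM, and neither passed the test. Of the 8 of 14 genes of that list that were tested, 7 were higher in HFD (median 0.07), 2 in HSD (−0.07) and 2 in HFSD (−0.05).

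**Figure D5:**
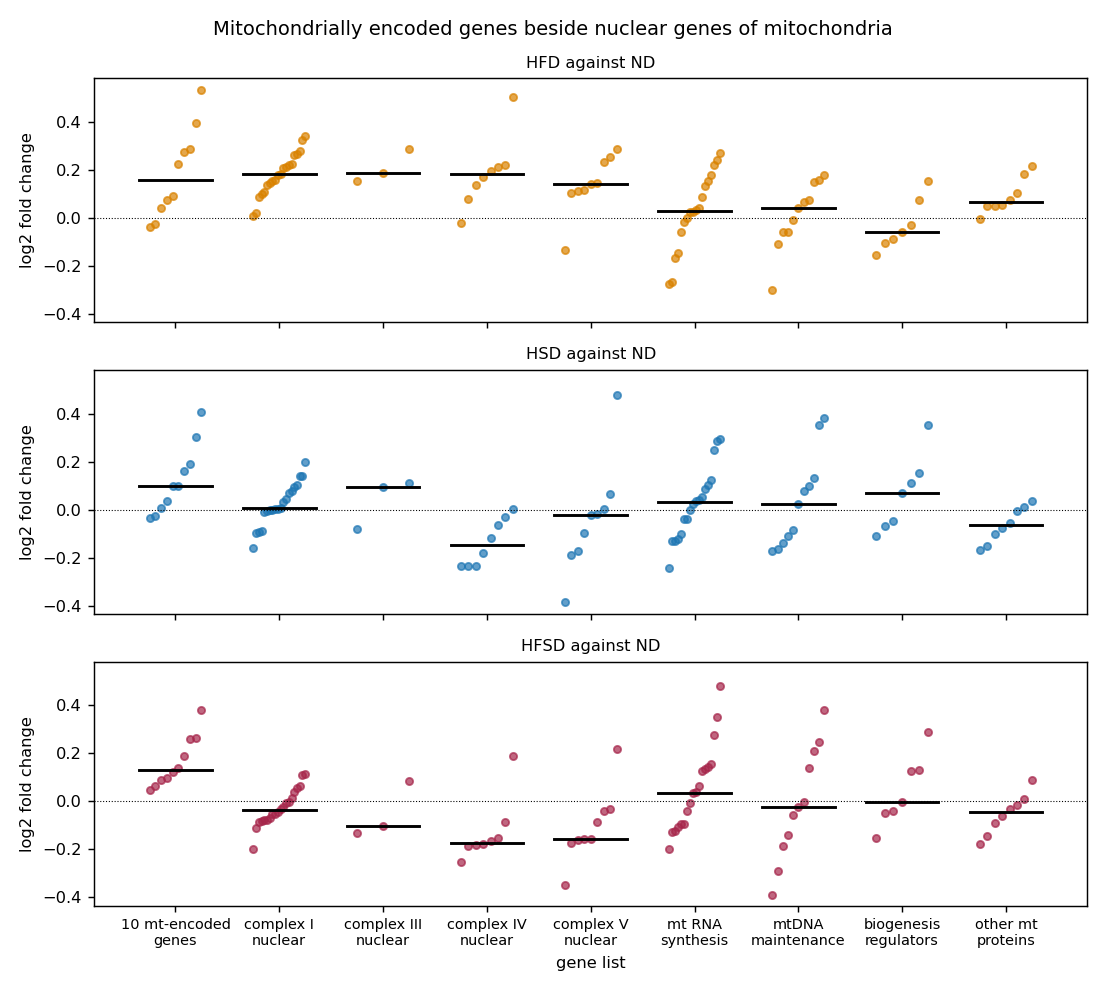
Each point is the log2 fold change against ND of 1 gene, sorted within its list, and the bar is the list's median, for HFD, HSD and HFSD from top to bottom. The mitochondrially encoded genes have medians of 0.16, 0.10 and 0.13, whereas all 20 nuclear complex I genes lie above 0 in HFD and 14 of 20 lie below it in HFSD.

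The genes most alike to the mean of the 10 over the 8 libraries, among 9867 protein-coding genes with a symbol, were CCDC192 (Pearson r=0.930), WDR53 (0.909), PDC (0.908), BEX4 (0.898) and ZNF383 (0.885), on log2(FPKM + 1). Without HSD replicate 2 their r ran from 0.862 to 0.977. PDC, the photoreceptor phosducin that binds transducin subunits, held 2552 to 3082 FPKM, and the others 1.84 to 9.42 FPKM. These are the highest values of many candidates over few libraries that share depth and scaling, and are given as a description.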

How the data were processed

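Total RNA of 8 rabbit retinas was extracted with TRIzol, and libraries were made with a TruSeq kit. The authors trimmed the reads, mapped them with TopHat2 allowing up to 2 mismatches, discarded reads with several locations, and deposited FPKM per gene and library. The genome build and annotation are not given in the sources used here, so no coordinates are printed.

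Lengths and fragment numbers were recovered from the steps of the FPKM values (99.9944% of values above 0 whole within 0.03 fragments). The depths by which FPKM was divided ran from 15764577 to 22785832.

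Diets were compared with limma (version 3.58.1, R 4.3.3) on log2(FPKM + 1), in 1 model of all 8 libraries whose variances followed a trend with the mean. Fold changes on this scale understate those of low genes. A protein-coding gene was tested where 2 or more libraries reached 1 FPKM (12204 genes), with Benjamini-Hochberg adjustment over all of them. The interaction was HFSD − HFD − HSD + ND. The recovery of fragments and the limma step were each tested on simulated data. Summaries were made in Python 3.11.15.

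Alternatives were a pseudocount of 0.1, no filter, 3 scalings, the compared libraries alone, a replicate block, no trend and each retina left out. A voom fit on recovered fragments was chosen after seeing the data.

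The members and lists were chosen with earlier results of these data known. Genes named are the members, the other mitochondrial genes, the 2 most abundant genes of each list and any called, and the 5 genes most alike. List genes with an unadjusted p under 0.05 and the marker genes were named after their values were seen. No value column was left unused (0 columns). Markers of rods are not reported here.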

Additional observations from a re-analysis of the deposited data

How the results depend on the processing

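None of the 10 genes was called in any comparison under any alternative, and the smallest adjusted p was 0.396 (limma, ATP8 in HFD without HFD replicate 2). Of 670 values of the genes under alternatives, 622 kept their direction and 48 turned it, 40 of these with 1 retina left out. With 2 retinas a diet, directions near 0 are within the error. Replicate numbers did not pair the samples (correlations of −0.16 to 0.08 between diets). With the replicate block 0 of the 10 genes were called, and of all genes 1, 5, 4 and 0 were called in HFD, HSD, HFSD and the interaction, against 1, 7, 2 and 1 without it. Of the other counts of all genes called by limma, those that moved most were these. No filter on low values gave 13 in HFD, 10 in HSD, 4 in HFSD and 18 in the interaction. The compared libraries alone gave 2 in HFD, 3 in HSD and 0 in HFSD. Without the trend, 2 were called in HSD and 0 in the interaction, and voom called 2 in HSD, 4 in HFSD and 0 in the interaction. Scaling to the sum of non-mitochondrial genes or of all genes gave 4 in HFSD, and a pseudocount of 0.1 or the median of ratios gave 0 in the interaction, the latter also 3 in HFSD. Leaving out 1 retina gave 1 to 2 in HFD, 3 to 17 in HSD, 2 to 11 in HFSD and 0 to 10 in the interaction.

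By the fold rule 339, 762 and 661 protein-coding genes passed in HFD, HSD and HFSD, and 1533, 2311 and 2145 with a pseudocount of 0.1. With 1 retina left out 629 to 777 passed in HFD and 831 to 1200.0 in HFSD, and 0 to 1 of the 10 genes in HFD. As a share of protein-coding FPKM alone, the 10 genes took 5.92% on ND, 6.69% on HFD, 6.93% ± 1.71 (s.d., n=2) on HSD and 6.82% on HFSD. CYTB turned to −0.0035 and −0.016 in HFD, and to 0.045 and 0.029 in HSD, with these 2 scalings, and to 0.0076 in HSD with voom. ND1 in HSD turned to 0.039, 0.023 and 0.0020 in the same settings. With 1 retina left out the log2 fold changes that turned were, in HFD, CYTB (−0.16 to 0.24), ND1 (−0.088 to 0.27), ND2 (−0.24 to 0.17), ND4 (−0.040 to 0.19) and ND5 (−0.38 to 0.33). In HSD they were COX1 (−0.015 to 0.39), COX3 (−0.15 to 0.47), ATP6 (−0.29 to 0.48), CYTB (−0.38 to 0.33), ND1 (−0.29 to 0.22), ND2 (−0.21 to 0.22), ND4 (−0.13 to 0.33) and ND5 (−0.32 to 0.40). In HFSD they were COX1 (−0.11 to 0.20), CYTB (−0.14 to 0.26) and ND5 (−0.27 to 0.45). In the interaction they were ATP6 (−0.45 to 0.33), CYTB (−0.31 to 0.40), ND1 (−0.17 to 0.34), ND2 (−0.088 to 0.34), ND4 (−0.21 to 0.25) and ND5 (−0.28 to 0.44), and the median of the 10 genes ran from −0.38 to 0.26. With the 2 scalings to a sum the median of the 10 genes was 0.11 and 0.10 for HFD, 0.17 and 0.15 for HSD and 0.20 and 0.18 for HFSD, against 0.16, 0.10 and 0.13. Why these values moved was not tested.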
